A study of Mus musculus with 2 samples.

Results

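The genes Ccl2, Ccl7, Ccl8 and Ccl11, which encode inflammatory CC chemokines, were followed through the stroma of the mouse gut. They are 4 of the 18545 genes listed in at least 1 of the 2 libraries, and all 4 were listed in both; they were chosen by name, and their levels played no part in the choice. The samples were stromal cells of the colon and of the small intestine of healthy, untreated mice, with 1 library per tissue. The epithelium had been stripped off, and collagenase with dispase acted for 60 minutes on the colon and for 45 minutes on the small intestine. Live CD45- EpCAM- cells were then sorted, and droplet sequencing read their transcripts from the 3′ end. Strain, sex, age and number of mice are not given in the labels. Among colon fibroblasts 1637 cells held Y-linked and no Xist UMIs and 2541 held Xist and no Y-linked UMIs, so the colon library holds cells of both sexes.

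CC chemokines are small secreted proteins that direct the migration of leukocytes, and they are named for a pair of neighbouring cysteines. CCL2 and CCL7 act on CCR2 and draw monocytes out of the blood, CCL11 (eotaxin) acts on CCR3 and draws eosinophils, which are abundant in the healthy intestine, and mouse CCL8 acts on CCR8. CCL2 and CCL7 are induced by inflammatory signals such as interleukin 1 and TNF through NF-kB, and eotaxin by type 2 cytokines through STAT6. In the gut wall, fibroblasts are a known source of all of these.

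The 4 genes are neighbours on chromosome 11 and lie on the plus strand within 81.2 kb (GENCODE M21 on GRCm38, the assembly that mm10, named in the submitters' processing notes, stands for). In order they are Ccl2 at chr11:82035571-82037453, Ccl7 at chr11:82045712-82047525, Ccl11 at chr11:82057823-82062955 and Ccl8 at chr11:82115185-82116799, each with 3 exons, and Ccl12 lies between Ccl11 and Ccl8. The coding stretch around the paired cysteine codons, printed in capitals, is shown for each member because the pair names the family and because the bases beside it show how far the copies have diverged. Each line gives 54 bases of coding sequence from the GENCODE transcript, 5′ to 3′.
Ccl2: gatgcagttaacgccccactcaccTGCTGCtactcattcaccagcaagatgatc
Ccl7: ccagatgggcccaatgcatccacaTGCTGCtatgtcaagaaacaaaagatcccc
Ccl11: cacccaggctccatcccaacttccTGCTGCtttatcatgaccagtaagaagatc
Ccl8: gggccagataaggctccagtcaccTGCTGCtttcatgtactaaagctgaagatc
All 4 use the same codons for the pair, at codons 34 and 35 in Ccl2, 33 and 34 in Ccl7, and 32 and 33 in Ccl11 and Ccl8. Ccl2 has 148 codons before its stop and the other members have 97. Over the aligned coding bases identity ran from 64.6% (Ccl11 with Ccl8) to 73.5% (Ccl2 with Ccl8). The longest run of identical bases that the transcripts of any pair of members share was 23 bases (Ccl2 with Ccl7), and within the last 300 bases, where 3′ libraries place most reads, it was 11 bases. Of the 4, the RefSeq promoter table (GRCm38.p6) held Ccl8, whose window of 250 bases before to 50 bases after the start site had the TATA box TATAAA starting 32 bases upstream, a motif found on either strand in 13.6% of the 32851 windows in the table. None of the letters of AP-1 (TGANTCA), STAT (TTCNNNGAA, and the STAT6 form with 1 more base in the middle), C/EBP (TTNCNNAA), the GC box (GGGCGG) or the NF-kB motif was in that window. Each of these is absent from most windows in the table, as they were found in 4.51% (NF-kB) to 40.7% (C/EBP) of them.

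The colon library held 6018 cells and 40684070 UMIs (unique molecular identifiers, each marking 1 captured RNA molecule), with a median of 6598 UMIs per cell. The small intestinal library held 9359 cells and 58134526 UMIs, with a median of 5943 per cell. Levels are given as CPM, the UMIs of a gene scaled to 1000000 UMIs of the label, with 95% counting intervals in parentheses, and a share is the percent of cells with at least 1 UMI of the gene. There were no replicates, so no difference has a test, and intervals and limits cover counting error only, not differences between mice or digestions. The authors' labels gave 3 fibroblast subtypes, which are CD81- FBs (3631 colon and 2823 small intestinal cells), CD81+ trophocytes of the outer mucosa and submucosa (875 and 1913) and PDGFRa-high SEMFs, the fibroblasts directly under the epithelium (1105 and 1109). The other labels compared were smooth muscle cells (SMCs, 125 and 468), lymphatic endothelial cells (LECs, 217 and 2498) and blood endothelial cells (BECs, 53 and 524). In each library the summed markers of Pdgfra-high fibroblasts, smooth muscle, lymphatic and blood endothelium were highest in the label of that name. The trophocyte list was highest in trophocytes in the small intestine (3327 CPM), but colon trophocytes were at 2554 CPM and colon BECs at 3163 CPM. The small intestinal SMC label also held 11017 CPM of 5 fibroblast markers, against 3214 CPM in the colon's. A total of 21 cell barcodes occurred in both libraries, 5 of them with the same label, and leaving them out changed the pooled fibroblast ratios of the 4 genes by little (closing section).

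In the pooled fibroblasts, Ccl11 was the most abundant of the 4 in both libraries and was lower in the colon, Ccl8 was higher in the colon, and Ccl2 and Ccl7 differed by less than 2-fold. Ccl2 reached 69.1 CPM in 5611 colon fibroblasts and 50.4 CPM in 5845 small intestinal fibroblasts, a log2 ratio of colon to small intestine of 0.45 (0.37 to 0.54). Ccl7 reached 30.3 and 31.1 CPM, a log2 ratio of -0.04 (-0.15 to 0.08). Ccl8 reached 52.1 and 12.3 CPM, a log2 ratio of 2.08 (1.94 to 2.22), which was 1.09 with the 3 subtypes weighted equally. Ccl11 reached 411 and 869 CPM, a log2 ratio of -1.08 (-1.11 to -1.05). Past 2-fold with an interval that leaves out 0, 1 member was higher and 1 lower in the colon. Of the 13307 genes tested with at least 100 UMIs, 6.88% were past 2-fold higher and 9.47% lower. Such shares over all genes, here and below, do not ask that the interval leave out 0, a looser rule than that for the members. The median of the 11434 genes with at least 100 UMIs in each library had a log2 ratio of -0.19 in these cells; relative to it Ccl2 was at 0.64, Ccl7 at 0.15, Ccl8 at 2.26 and Ccl11 at -0.89, which is within 2-fold. The sign for Ccl7 turned with the scaling and with how cells were weighted, so no direction is given for it in pooled fibroblasts.

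**Figure D1:**
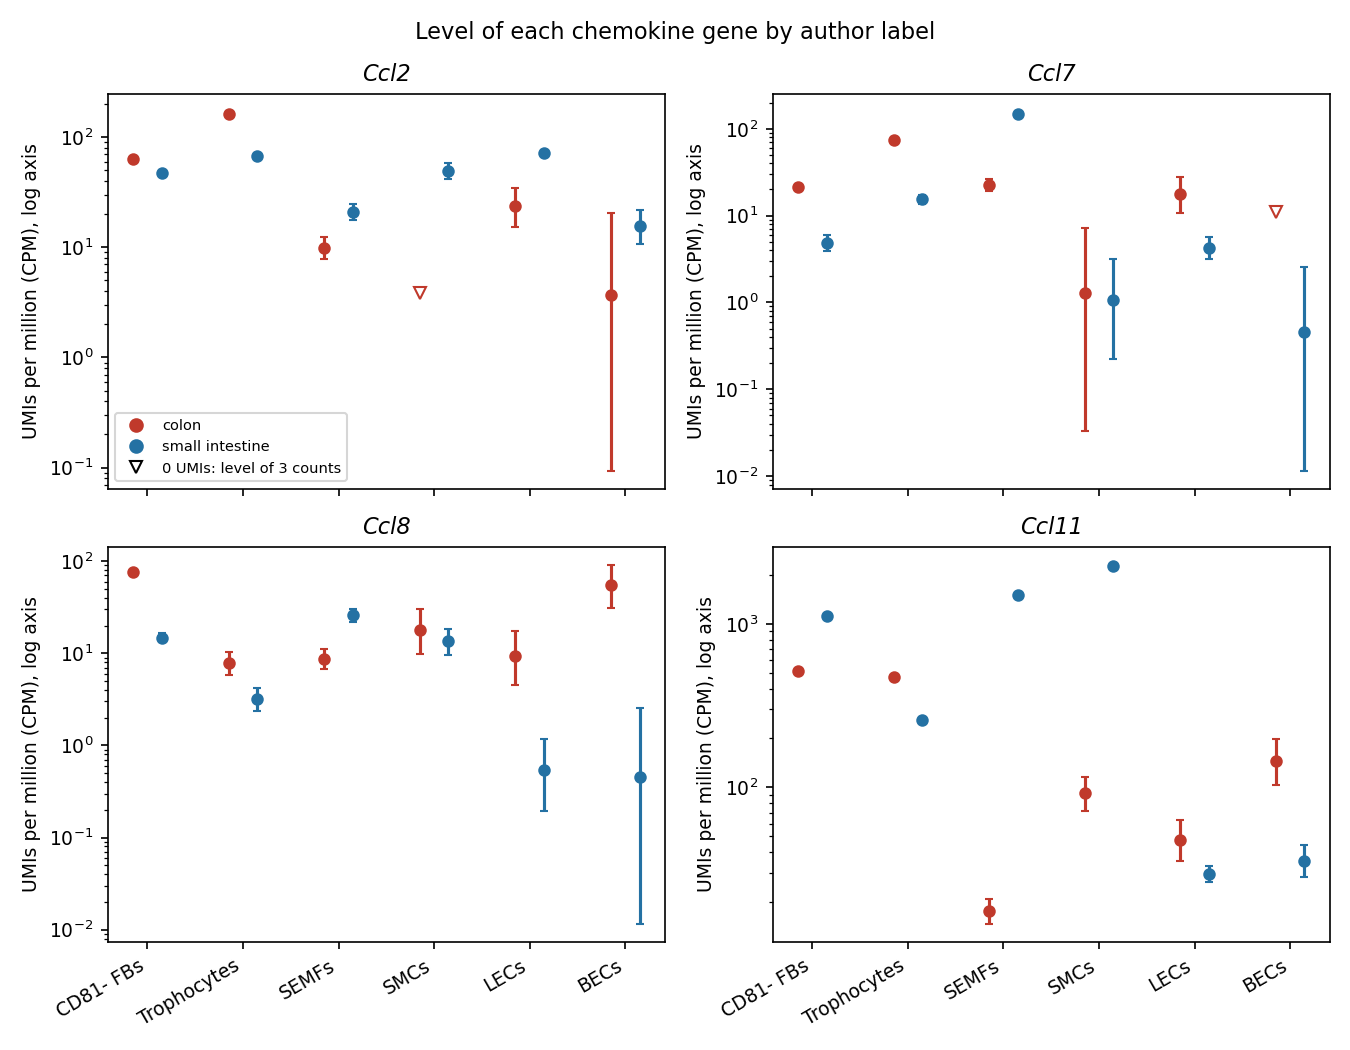
CPM of each gene (log axis) in each author label, colon in red and small intestine in blue; bars are exact 95% Poisson intervals, and an open triangle marks a label with 0 UMIs at the level of 3 counts. Ccl11 spans 17.5 CPM in colon SEMFs to 2244 CPM in the small intestinal SMC label, and Ccl7 has its highest level, 149 CPM, in small intestinal SEMFs.

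Ccl2, the monocyte attractant, was highest in trophocytes in the colon and was shared between trophocytes and lymphatic endothelium in the small intestine. In the colon it was at 161 CPM (151 to 171) in trophocytes, 63.3 CPM (60.2 to 66.5) in CD81- FBs, 23.5 CPM in LECs and 9.95 CPM in SEMFs, and each of these differed from the next beyond its counting interval. Colon SMCs held 0 UMIs in 125 cells, which allows a level of up to 3.88 CPM, and colon BECs held 1 UMI. In the small intestine LECs (71.6 CPM, 66.8 to 76.8) and trophocytes (67.5 CPM, 63.4 to 71.8) did not differ beyond their intervals, and CD81- FBs followed at 47.2 CPM. The small intestinal SMC label was at 49.2 CPM, but 1 of its 468 cells held 57.2% of those UMIs. SEMFs held 137 UMIs of Ccl2 in 28 of 1109 cells, and BECs were at 15.5 CPM, with 79.4% of the BEC UMIs in 1 cell.

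Ccl7, the second ligand of CCR2, was at the same pooled fibroblast level in both tissues but came from different subtypes. In the small intestine SEMFs were at 149 CPM (139 to 158), trophocytes at 15.4 CPM (13.5 to 17.5) and CD81- FBs at 4.86 CPM (3.95 to 5.93), so that 969 of 1298 fibroblast UMIs were in SEMFs. In the colon trophocytes were at 73.5 CPM (67.0 to 80.5), and SEMFs (22.7 CPM), CD81- FBs (21.5 CPM) and LECs (17.8 CPM) did not differ from one another in that order beyond their intervals. By number, 531 of the 1168 colon fibroblast UMIs were in the more numerous CD81- FBs, 468 in trophocytes and 169 in SEMFs. Ccl7 was detected in 25.3% (22.8 to 28.0) of small intestinal SEMFs and 6.06% (4.73 to 7.64) of colon SEMFs, and after thinning each cell to 2000 UMIs in 17.0% and 3.01%. The SMC and BEC labels of both libraries held 3 UMIs of Ccl7 or fewer.

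Ccl8 was mainly a transcript of colon CD81- FBs, at 76.6 CPM (73.2 to 80.1) with 23.2% of cells positive, against 14.8 CPM (13.2 to 16.6) and 7.65% in the same label of the small intestine. Of the 2008 Ccl8 UMIs in colon fibroblasts, 1893 were in this label. Colon SEMFs (8.74 CPM) and trophocytes (7.85 CPM) did not differ beyond their intervals. The 55.6 CPM of the 53 colon BECs rested on 2 positive cells, 1 of which held 12 of the 15 UMIs. In the small intestine SEMFs were highest at 25.8 CPM (22.01 to 29.96), above CD81- FBs, and LECs and BECs held 6 and 1 UMIs. The share of positive cells was 8.12% (6.58 to 9.88) in these SEMFs, close to that of CD81- FBs, and 3 SEMFs held 22.0% of the 168 SEMF UMIs. Macrophage transcripts, summed over 10 markers (9 in the colon table and 8 in the small intestinal one), were also highest among colon fibroblast labels in CD81- FBs, at 69.7 CPM, where 9 of the 9 had UMIs, against 25.0 CPM in trophocytes and 32.4 CPM in SEMFs. In the small intestine they were at 50.4 CPM in SEMFs, the label highest in Ccl8 there too, 18.7 CPM in CD81- FBs and 16.0 CPM in trophocytes; their part in the Ccl8 levels was not tested. Without the fibroblasts that held any UMI of a 14-gene immune panel (809 colon and 340 small intestinal cells) the pooled log2 ratio of Ccl8 was 2.04, about as large as with them. Of the panel 9 genes were listed in the colon and 11 in the small intestine, and it lacks the macrophage markers Cd68, Lyz2 and Cd14. Small intestinal SEMFs held 62 UMIs of the panel and 329 of the macrophage markers, so this step cannot settle the part of macrophage transcripts.

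Ccl11, the eosinophil attractant, had the highest level of the 4 in both tissues. In the small intestine it was at 2244 CPM (2189 to 2300) in the SMC label, 1510 CPM (1480 to 1540) in SEMFs, 1115 CPM (1100 to 1130) in CD81- FBs and 260 CPM (252 to 268) in trophocytes, each apart from the next. In the colon CD81- FBs (514 CPM, 505 to 523) and trophocytes (470 CPM, 453 to 487) were highest and differed by 1.09-fold, and SEMFs were lowest of all labels at 17.5 CPM (14.6 to 20.8). Ccl11 was detected in 91.6% of small intestinal and 70.9% of colon CD81- FBs, and in 66.6% (63.8 to 69.4) of small intestinal but 5.16% (3.93 to 6.63) of colon SEMFs. With each cell thinned to 2000 UMIs the SEMF shares were 60.5% and 2.19%.

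The ratio of colon to small intestine ran in opposite directions in trophocytes and SEMFs for every member. In trophocytes the log2 ratio was 1.25 (1.12 to 1.38) for Ccl2, 2.26 (2.03 to 2.49) for Ccl7, 1.30 (0.70 to 1.90) for Ccl8 and 0.86 (0.79 to 0.92) for Ccl11. In SEMFs it was -1.08 (-1.51 to -0.66) for Ccl2, -2.71 (-2.95 to -2.47) for Ccl7, -1.56 (-1.995 to -1.138) for Ccl8 and -6.43 (-6.69 to -6.18) for Ccl11, the last an 86.4-fold lower level in the colon. All 4 members were thus higher in the colon in trophocytes and lower in SEMFs, and the difference between the subtypes was not tested. By the 2-fold rule 2 members, Ccl2 and Ccl7, were called higher in the colon in trophocytes. There 4.23% of genes were past 2-fold higher and 8.24% lower. Ccl8 fell short of 100 UMIs, and its log2 ratio was 0.41 after thinning. In SEMFs all 4 were called lower, where 5.36% of genes were past 2-fold higher and 15.1% lower.

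The SEMF value of Ccl2 rested on few cells: without the 1% of cells with most Ccl2 UMIs in each library, 26 and 17 UMIs remained and the log2 ratio was 0.43, and scaling to the median gene gave -0.77, within 2-fold. For Ccl11 in SEMFs every alternative gave a log2 ratio between -7.52 and -6.12. In CD81- FBs Ccl7 (2.14, 1.83 to 2.47) and Ccl8 (2.37, 2.19 to 2.55) were called higher in the colon, and Ccl11 (-1.12, -1.15 to -1.09) lower. There 6.46% of genes were past 2-fold higher and 10.4% lower. That call for Ccl11 is lost at -0.87 relative to the median gene. Without the 1% of CD81- FBs with most Ccl7 UMIs, 12 UMIs remained in the small intestine and the log2 ratio of Ccl7 was 4.18; in trophocytes the same step gave 3.71.

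**Figure D2:**
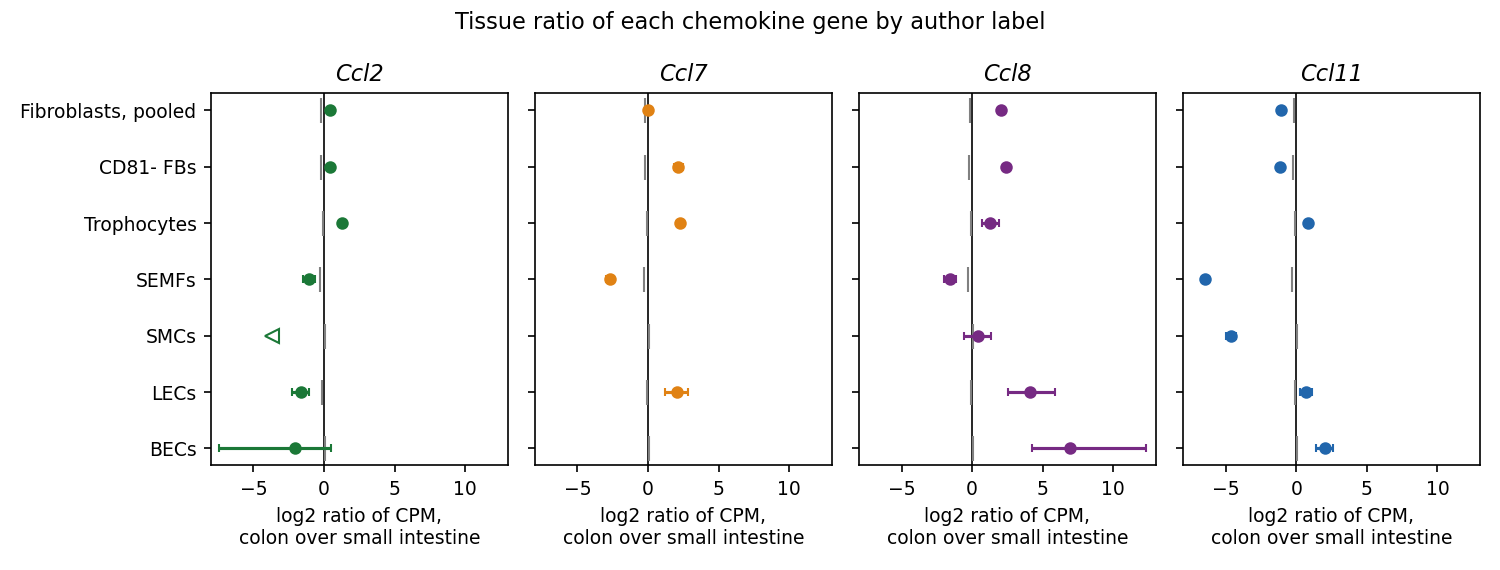
Log2 ratio of CPM, colon over small intestine, of each gene in pooled fibroblasts and in each label; bars are exact 95% counting intervals, the open triangle is an upper bound (0 UMIs in colon SMCs), and grey ticks mark the median gene of the label. In trophocytes all 4 genes lie right of 0 and in SEMFs all 4 lie left of it, with Ccl11 at -6.43.

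Immediate early genes, which cells switch on within minutes of stress or handling, also differed between the SEMF labels. Of the 13 genes on the list, 9 were past 2-fold higher in colon SEMFs and 0 lower, with a median log2 ratio of 1.86 against -0.33 over all 10001 genes tested there. Fos was at 1257 CPM in colon and 346 CPM in small intestinal SEMFs, and Atf3 at 152 and 20.7 CPM. In trophocytes 2 of the 13 were higher and 1 lower in the colon (median -0.03), and in LECs 1 of 12 was higher and 8 lower (median -1.14). The digestion lasted 15 minutes longer for the colon, so time in enzyme and tissue cannot be told apart in these libraries, and the part of either in the chemokine levels was not tested.

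The members differed in how their UMIs were spread over cells. Ccl2 was found in 9.07% of colon and 5.87% of small intestinal fibroblasts, and the 1% of fibroblasts with most Ccl2 UMIs held 62.1% and 70.4% of all its fibroblast UMIs. The brightest colon cell, a trophocyte, held 212 Ccl2 UMIs, and 53 fibroblasts in each library held at least 10. Ccl7 was intermediate, with 51.2% and 50.1% of its UMIs in the top 1% of fibroblasts, and Ccl8 less concentrated, with 28.4% and 39.6%. Ccl11 was found in 58.7% of colon and 75.9% of small intestinal fibroblasts, and its top 1% held 7.92% and 8.79%. Fewer molecules per gene raise this share, but Ccl2 was more concentrated than Ccl8 in the colon, although the genes had 2661 and 2008 UMIs there. A Ccl2 level of a label is therefore set by few cells, and its counting interval, which treats UMIs as independent, is too narrow. Intervals of the other members treat UMIs as independent too. For Ccl7, 14 of 875 colon trophocytes held 54.5% of the label's UMIs, and 6 of 1913 small intestinal trophocytes held 49.4%.

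**Figure D3:**
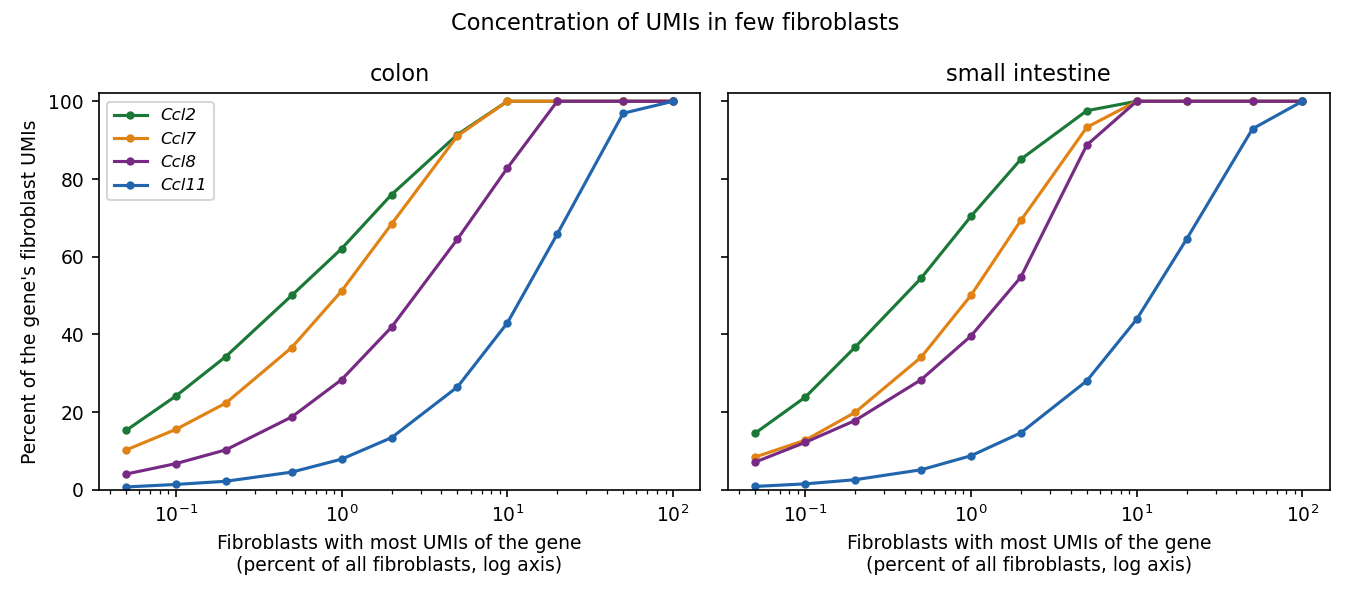
Percent of each gene's fibroblast UMIs (vertical axis) held by the fibroblasts with most of them (horizontal log axis, percent of all fibroblasts), for colon and small intestine. The Ccl2 curve is above those of the other genes at 1% of cells (62.1% and 70.4%), and the Ccl11 curve is lowest (7.92% and 8.79%).

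Ccl2 and Ccl7 were found in the same cells more often than their shares would give. In colon fibroblasts 113 cells held both, against 34.9 if the genes were independent, an odds ratio of 5.07 that was 6.10 after thinning. An odds ratio of at least 2 with Ccl2 was seen for 0.548% of the genes found in at least 5% of the thinned cells. Ccl7 itself was in 3.44% of thinned colon and 4.06% of thinned small intestinal fibroblasts, under that limit. These shares are therefore of more widely detected genes and do not show how rare such a value is among genes like Ccl7. In small intestinal fibroblasts 47 cells held both against 22.2, an odds ratio of 2.47 (3.59 thinned), where 0.642% of genes reached 2. Within small intestinal subtypes it was 8.49 in CD81- FBs, 10.2 in trophocytes and 1.66 in SEMFs, and in colon trophocytes 4.96; in trophocytes 2.37% (small intestine) and 3.37% (colon) of genes reached 2. The share of cells with Ccl7 also went up with the number of Ccl2 UMIs. In colon fibroblasts it was 5.33% with no Ccl2 UMI, 15.6% with 1 to 2, 29.5% with 3 to 9 and 45.3% with 10 or more, while the median depth of these cells went from 6656 to 7856 UMIs. In small intestinal fibroblasts the 4 shares were 6.03%, 9.76%, 11.8% and 32.1%.

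Ccl7 and Ccl11 showed the reverse in small intestinal SEMFs. There 147 cells held both genes against 187 if independent, an odds ratio of 0.44 (0.36 after thinning). Ccl7 was detected in 36.2% of SEMFs without Ccl11, 40.7% with 1 to 2, 23.8% with 3 to 9 and 13.2% with 10 or more Ccl11 UMIs, and the Ccl7 level went from 264 to 65.4 CPM between the first and the last of these sets. The median depths of these 2 sets were 5576 and 5946 UMIs. In the other fibroblast subtypes the odds ratio of this pair was above 1, from 1.13 in small intestinal CD81- FBs (0.66 after thinning, from 12 cells with both) to 5.85 in colon trophocytes (3.22 after thinning). The 8 markers of Pdgfra-high fibroblasts differed by at most 2.72 percentage points between small intestinal SEMFs with and without Ccl11, though the rare Foxl1 was at 1.38% and 3.99%. The proteoglycan gene Lum was in 68.3% of those with and 79.1% of those without Ccl11. Among all genes, those most lower with Ccl11 included Hoxc8 (15.6% against 30.5%), Mid1 (33.7% against 47.2%) and Kcnk2 (51.5% against 63.1%).

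Ccl8 and Ccl11 were found together in CD81- FBs, where the odds ratio was 1.58 in the colon (1.33 thinned) and 6.97 in the small intestine (1.97 thinned). In colon CD81- FBs the share with Ccl8 was 17.8% with no Ccl11 UMI and 37.5% with 10 or more. In small intestinal SEMFs the odds ratio of this pair turned from 0.60 to 1.63 with thinning, so no direction is given there. Ccl2 and Ccl11 had an odds ratio of 2.16 (2.07 thinned) in pooled colon fibroblasts, and within subtypes of 1.26 (1.58 thinned) in CD81- FBs and 2.50 (1.56 thinned) in trophocytes. Ccl2 and Ccl8 were found together in 97 colon fibroblasts against 82.2 if independent, and in 21 small intestinal fibroblasts against 20.5. After thinning the odds ratios of this pair were 1.82 in the colon and 0.48 in the small intestine, the latter from 2 cells with both. All 4 transcripts were found in 19 of 5611 colon fibroblasts and 3 of 5845 small intestinal fibroblasts, and at least 1 of them in 66.1% and 80.2%.

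**Figure D4:**
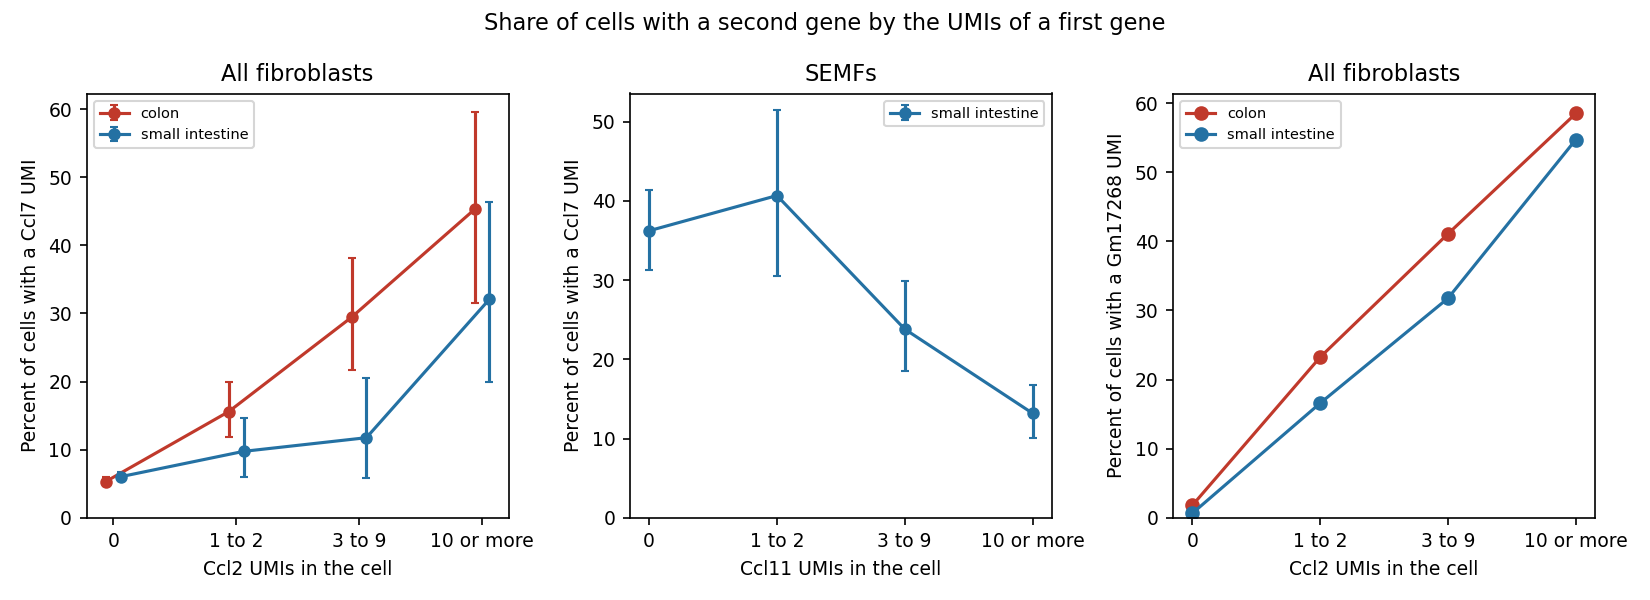
Percent of cells with a UMI of a second gene (vertical axes) by the number of UMIs of a first gene in the cell; bars in the first 2 panels are exact 95% binomial intervals. Ccl7 goes up with Ccl2 in pooled fibroblasts of both tissues (to 45.3% and 32.1%), goes down with Ccl11 in small intestinal SEMFs (36.2% to 13.2%; colon SEMFs have too few cells with Ccl11 to plot), and Gm17268 goes up with Ccl2 (to 58.5% and 54.7%).

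Gm17268 was among the 5 genes whose share differed most between trophocytes with and without Ccl2, in both libraries. After thinning it was found in 22.4% of the Ccl2-positive and 1.67% of the Ccl2-negative colon trophocytes, and in 21.8% and 0.661% of the small intestinal ones. This annotated gene lies at chr11:82028224-82038562 on the minus strand, opposite to Ccl2, and the whole of Ccl2 lies within its intron; neither of its 2 exons, at chr11:82038528-82038562 and chr11:82028224-82028254, overlaps Ccl2. Of its fibroblast UMIs, 73.4% in the colon and 80.2% in the small intestine were in Ccl2-positive cells. Whether the counting used strand and introns is not given in the sources used here, so reads of the genes cannot be told apart. Adding its 474 colon and 293 small intestinal fibroblast UMIs to Ccl2 moved the pooled log2 ratio from 0.45 to 0.50 and that of SEMFs from -1.08 to -0.51. Cells with 10 or more Ccl2 UMIs held 4.74 Gm17268 UMIs per 100 of Ccl2 in colon fibroblasts, 5.77 in small intestinal fibroblasts and 0.46 in small intestinal LECs, the last from 13 cells with 2 UMIs of Gm17268.

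Outside the fibroblast labels, levels were set against Dcn, an abundant fibroblast proteoglycan transcript that also appears at low level in other labels. If a label's Dcn UMIs had brought chemokine UMIs along at the ratio seen in the library's pooled fibroblasts, small intestinal LECs would hold 14.4 UMIs of Ccl2. They held 803, which is 55.7 (51.9 to 59.7) times as many, in 181 of 2498 cells, 7.25% (6.26 to 8.33), with 20.3% of the UMIs in 1 cell. Ccl11 in the same cells was at 1.33 times (1.19 to 1.48) that amount. For Ccl11 the fibroblast subtypes themselves stood apart from the pooled ratio. Small intestinal SEMFs were at 5.09 times, CD81- FBs at 1.61 times and trophocytes at 0.19 times it, so such a value depends on the subtype taken as reference. Of 11 NF-kB inducible genes with at least 100 UMIs in LECs, 4 were past 2-fold lower and 1 higher in the colon, with a median log2 ratio of -0.75 against -0.27 over all genes tested there. Nfkbiz was at 91.0 CPM in colon and 543 CPM in small intestinal LECs, while the adhesion molecule gene Icam1 was at 440 and 457 CPM and Cxcl16 at 18.8 and 7.32 CPM. In colon LECs Ccl2 was at 3.54 times (2.29 to 5.23) and Ccl11 at 1.22 times (0.91 to 1.60) the amount that goes with Dcn. Ccl7 was at 6.13 times (3.69 to 9.58) in colon LECs, from 19 UMIs. In small intestinal LECs it was at 5.40 times (3.98 to 7.16), from 48 UMIs. For Ccl7 too the subtypes stood apart from the pooled ratio, with SEMFs at 5.04 times in the colon and 13.98 times in the small intestine. The log2 ratio of Ccl2 in LECs was -1.61 (-2.25 to -1.04), and Ccl2 was the 1 member called. There 3.45% of genes were past 2-fold higher and 15.4% lower in the colon. With the UMIs of Gm17268 added the ratio of Ccl2 was -0.65, within 2-fold. The other members were higher in colon LECs, with log2 ratios of 2.06 (1.21 to 2.85) for Ccl7, 4.13 (2.53 to 5.88) for Ccl8 and 0.70 (0.25 to 1.13) for Ccl11. Ccl7 and Ccl8 fell short of 100 UMIs there, and Ccl11 was within 2-fold.

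Ccl11 in the small intestinal SMC label was at 5.73 times (5.59 to 5.88) the amount that goes with Dcn in pooled fibroblasts, and in colon SMCs at 1.27 times (0.99 to 1.60). Small intestinal SEMFs, a fibroblast subtype, were at 5.09 times (4.99 to 5.19) by the same measure. The log2 ratio of Ccl11 in this label was -4.61 (-4.97 to -4.27). That of Ccl2 was -3.66 with the colon's 0 UMIs set to 3 counts, and its upper limit was -3.34. Both were called. In this label 3.37% of genes were past 2-fold higher and 17.3% lower in the colon. Without the 1% of cells with most Ccl2 UMIs the ratio of Ccl2, again with 3 counts for the colon, was -0.47. The small intestinal label is mixed in its markers, and its cells were therefore split at the median of the smooth muscle markers, a split chosen after the values were seen. Ccl11 was at 3213 CPM (3117 to 3311) in the 234 cells above and 1372 CPM (1313 to 1433) in the 234 cells below, while Dcn was at 4580 and 9988 CPM. Acta2, smooth muscle actin, was at 10486 and 2604 CPM, but it is 1 of the markers that set the split, so that difference follows from it. In the colon the 62 cells above were at 21.3 CPM of Ccl11 (9.19 to 42.0) and the 63 below at 159 CPM (122 to 203). In the 253 small intestinal cells with more smooth muscle than fibroblast marker UMIs Ccl11 was at 3266 CPM, against 76.7 CPM in 121 such colon cells. In the small intestinal label Ccl11 was detected in 89.7% of the cells above and 93.6% of those below, so that both parts held it and the level was higher above; in the colon the level was higher below.

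Colon BECs were at 145 CPM of Ccl11 (103 to 198) and small intestinal BECs at 35.6 CPM (28.1 to 44.4), which is a log2 ratio of 2.02 (1.43 to 2.60). Ccl11 was the 1 member called, higher in the colon, where 3.1% of genes were past 2-fold higher and 19.6% lower. The colon value rested on 5 positive cells of 53, and the log2 ratio was 0.25 after thinning and -2.12 without the 5% of cells with most UMIs in each library. Ccl2 in small intestinal BECs was detected in 3 of 524 cells.

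**Figure D5:**
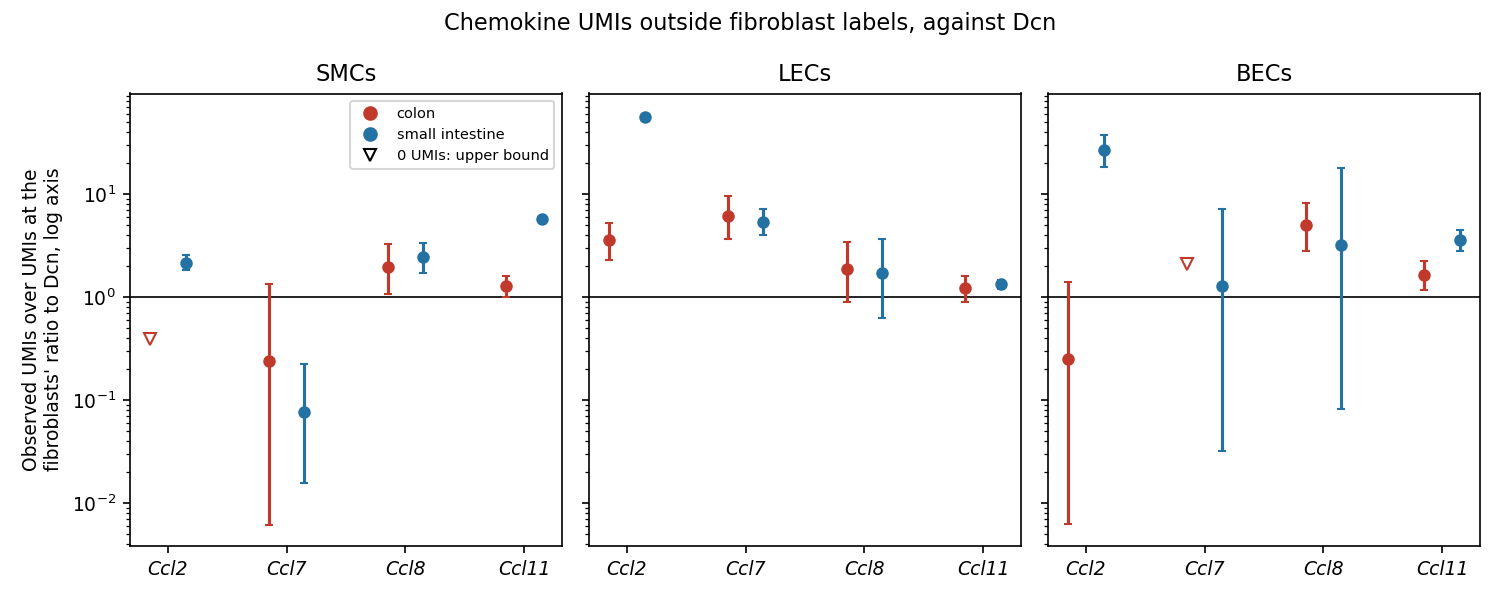
UMIs of each gene in SMCs, LECs and BECs divided by the number expected from the label's Dcn UMIs at the pooled fibroblasts' ratio (log axis, 1 is the black line). Bars are exact 95% Poisson intervals of the observed UMIs, and open triangles are upper bounds for 0 UMIs. Fibroblast subtypes, not plotted, also differ from 1, with Ccl11 in small intestinal SEMFs at 5.09. Ccl2 in small intestinal LECs stands at 55.7 and Ccl11 in the small intestinal SMC label at 5.73, while Ccl11 in LECs is near 1 in both tissues.

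Among 16 other CC chemokines, 6 were listed in both libraries and 4 had at least 100 UMIs in fibroblasts. Of these 3 were past 2-fold lower in the colon and 0 higher, with a median log2 ratio of -1.52 against -0.17 over all genes tested. They were Ccl19 (0.68 and 15.6 CPM), Ccl21a (7.97 and 28.4 CPM), both ligands of CCR7, and Ccl25 (6.52 and 14.9 CPM), a ligand of CCR9. Ccl12, the neighbour between Ccl11 and Ccl8, was listed in the small intestine with 12 UMIs in 10 cells. Of the receptors of the 4 members, Ccr1, Ccr3 and Ccr8 were listed in neither library, and Ccr2 in the small intestine with 2 UMIs in fibroblasts. Scavenger receptors, which bind chemokines without signalling, were present: Ackr2 at 178 CPM in colon and 66.7 CPM in small intestinal LECs, and Ackr1 at 70.5 CPM in colon and 510 CPM in small intestinal BECs.

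Of 15 NF-kB inducible genes, 1 was higher and 6 were lower in colon fibroblasts past 2-fold, with a median log2 ratio of -0.49; over all genes tested there 6.88% were higher and 9.47% lower, with a median of -0.17. Icam1, an adhesion molecule, was at 343 and 161 CPM, while Il6 was at 22.0 and 79.0 CPM, Cxcl5 at 1.19 and 17.5 CPM, and Tnfaip6 at 188 and 770 CPM. In trophocytes, where Ccl2 and Ccl7 were higher in the colon, Cxcl1 (425 and 195 CPM) and Cxcl2 (11.3 and 3.13 CPM), attractants of neutrophils, were higher there too, whereas Il6 (83.4 and 186 CPM) and Cxcl10 (41.6 and 130 CPM) were lower. Of 6 genes of type 2 cytokine reception and response, 2 were higher in colon fibroblasts and 0 lower, with a median of -0.03; these were Postn (1268 and 180 CPM) and the decoy receptor Il13ra2 (3.66 and 0.70 CPM), while Stat6 was at 29.16 and 30.04 CPM. Of 12 genes of NF-kB relay and cytokine receptors, 0 were higher and 1 was lower in colon fibroblasts, the oncostatin M receptor gene Osmr (63.6 and 129 CPM), a share near that of all genes.

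The genes whose level followed a member most closely over the 12 profiles of 6 labels in 2 libraries were found among 5981 genes by Pearson's r of log2(CPM + 10), as a description of profiles that share libraries and depth. For Ccl2 these were Creb5 (r = 0.91), Dtnbp1, Man1a and Cd55. For Ccl7 they were Steap3 (0.87), Itm2a, Pla1a, Sc5d and Ergic1, for Ccl8 Akr1b3 (0.81), Tafa1, Stk25, Cnpy3 and Wnt4, and for Ccl11 C1qtnf7 (0.94), Aldh1a3, Mdk, Kcnk2 and Tmem178b. No member was that close to another, the highest r between members being 0.42 (Ccl8 with Ccl11).

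Genes that went with a member in single cells of a label were ranked by the difference in their share between cells with and without it. In colon trophocytes Id3, an inhibitor of transcription factors, was among the first 5 for both Ccl2 (73.7% against 52.1%) and Ccl7 (74.2% against 52.5%). For Ccl7 the largest differences there were those of Myl12a (69.4% against 41.3% of cells without Ccl7) and Ifrd1 (79.0% against 52.7%). The metallothionein gene Mt1 (87.1% against 61.2%) and Cxcl1 (48.4% against 25.4%) followed. Colon trophocytes with Ccl2 more often held Srsf3 (64.5% against 47.1%) and Cox4i1 (76.3% against 59.2%). Nfkbia, the NF-kB inhibitor gene (71.1% against 54.2%), ranked below these. In small intestinal trophocytes Ccl2 went with Has1, a hyaluronan synthase (42.3% against 20.6%). In colon CD81- FBs Ccl11 went with the matrix gene Tnc (53.9% against 32.0%) and the Wnt antagonist Sfrp1 (81.2% against 59.4%), and Ccl8 with AW112010 (48.3% against 36.9%) and the transcription factor Cebpb (49.9% against 40.4%). Cebpb was also the gene that went most with Ccl7 in small intestinal SEMFs (60.1% against 45.8%). In these SEMFs Ccl8 went with the transcription factor Runx1 (52.6% against 22.3%), over 38 positive cells, and Ccl11 with Ms4a4d (54.7% against 38.0%) and Mgp (39.1% against 26.3%). All of these shares are of cells thinned to 2000 UMIs.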

How the data were processed

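Stromal cells of 1 colon and 1 small intestinal library were analysed. Per the submitters' processing notes, Cell Ranger 7.1.0, Seurat 4 and mm10 were used; filters on cells and whether doublets were removed are not given in the sources used here. The deposited raw UMI counts per gene and cell and the authors' cell labels were used as deposited; the normalized natural log tables were not used. Spellings of a label were joined, and the colon's 3 blood endothelial labels were pooled as BECs. From the counts, CPM (a gene's UMIs scaled to 1000000 of the label's deposited counts), exact Poisson, Clopper-Pearson and conditional binomial 95% intervals, and odds ratios were computed with Python 3.11.15, numpy 2.4.6 and scipy 1.17.1, and TMM factors with edgeR for an alternative. A value of 0 was set to a floor of 3 counts, and no ratio is given where both libraries were at or under it. Cells were thinned to 2000 UMIs with a fixed seed, which left out 69 colon and 343 small intestinal cells. A member was called where the libraries together held 100 or more of its UMIs, with a ratio past 2-fold and an interval that leaves out 0. The shares over all genes count genes with 100 or more UMIs and a ratio past 2-fold, whatever their interval. The genes named are the 4 members, the 5 genes nearest to each in level, the 5 that went most with each in single cells of its highest fibroblast label in each library (of which some are printed), and genes of the lists past 2-fold or highest in CPM. The values of 1 gene near Ccl2 in level and of 1 receptor gene are not reported here. No doublet caller was run; an alternative leaves out the 5% of cells with most UMIs. Intervals and ratios were checked on simulated counts. The members, the gene lists and the tests were chosen with earlier results of these data known.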

Additional observations from a re-analysis of the deposited data

Results flagged for a closer look

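The log2 ratio of colon to small intestine had opposite signs in trophocytes and SEMFs for each member, with intervals on opposite sides of 0. For Ccl2 it was 1.25 in trophocytes and -1.08 in SEMFs, for Ccl7 2.26 and -2.71, for Ccl8 1.30 and -1.56, and for Ccl11 0.86 and -6.43. With 1 library per tissue, this difference between the subtypes was not tested. For Ccl2 the sign in SEMFs turned without the 1% of cells with most of its UMIs.

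Chemokine UMIs were also found in labels too small to compare. The 24 small intestinal cells labelled proliferating held 69 UMIs of Ccl2 (79.7% of them in 1 cell), 9 of Ccl7 and 115 of Ccl11. The 8 colon cells labelled pericytes held 35 UMIs of Ccl11, of which 26 were in 1 cell.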

How the results depend on the processing

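No paired analysis was possible because each tissue had 1 library. In pooled fibroblasts the log2 ratio of Ccl2 moved to 0.64 relative to the median gene, 0.59 with TMM, 0.24 without cells with immune panel UMIs, 0.81 without the 1% of cells with most Ccl2 UMIs and 0.78 with the 3 subtypes weighted equally. That of Ccl7 moved to -0.44 as a mean of each cell's CPM, -0.53 after thinning, 0.15 relative to the median gene, 0.10 with TMM, -0.52 with equal weights and 0.23 with only colon cells that held Y-linked and no Xist UMIs. That of Ccl8 moved to 1.92 as a mean over cells, 2.26 relative to the median gene, 2.33 without the 1% of cells with most, 1.09 with equal weights, 1.85 with only Y-linked and 2.30 with only Xist colon cells. That of Ccl11 moved to -1.20 as a mean over cells, -1.20 after thinning, -0.89 relative to the median gene, -0.94 with TMM, -1.53 with equal weights, -1.17 with only Y-linked and -1.04 with only Xist colon cells. The direction of Ccl2, Ccl8 and Ccl11 held in every alternative run. Without the 21 barcodes found in both libraries the 4 ratios were 0.45, -0.06, 2.05 and -1.08.

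Among the ratios by label whose interval left out 0, 2 turned: Ccl2 in SEMFs to 0.43 without the 1% of cells with most of its UMIs, and Ccl11 in BECs to -2.12 without the 5% of cells with most UMIs. Of those whose interval held 0, Ccl2 in BECs changed sign in 3 of 11 alternatives (-2.15 to 1.77) and Ccl8 in SMCs in 1 of 12 (-1.62 to 1.67). The log2 odds ratio of Ccl7 with Ccl11 in pooled small intestinal fibroblasts, below 0, turned to 0.17 within CD81- FBs and 0.48 within trophocytes, all without thinning. After thinning the odds ratio itself was 0.66 in CD81- FBs, where the turn was lost, and 1.04 in trophocytes. The cause of these differences was not tested. In colon SEMFs Ccl8 was at 13.05 CPM in cells with only Y-linked and 5.28 CPM in cells with only Xist UMIs, from 30 and 19 UMIs. Colon CD81- FBs, which held most of its UMIs, went the other way, at 65.4 and 92.0 CPM. Among the compared labels, 3 counts stand for 11.1 CPM in colon BECs, 3.88 in colon SMCs, 2.82 in colon LECs and 1.37 or less in the others.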
